A study of Homo sapiens with 9 samples.

Results

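The genes described here are the numbered zinc finger (ZNF) genes of human chromosome 19, chosen from the deposited table as the rows placed on that chromosome whose symbol is ZNF, a number and at most 1 letter. The rule found 234 genes among 19930 with values, and it used no expression value. RNA was sequenced from cells labelled MDA-MB-453, an established human breast cancer line, in 9 libraries of 3 groups. X453_NC was the scramble control, and X453_1 and X453_2 were knockdowns of the long noncoding RNA LINC00673. All 9 libraries followed a Lipofectamine transfection and were harvested at 48 h, so the control cells carried the transfection as well. The labels do not say which siRNA each knockdown group received, but the numbering of the groups is that of the study's siRNAs. Nothing says that the 3 libraries of a group came from separate cultures, so each P value measures the spread between libraries, which may be technical. LINC00673 itself was not analysed here.

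Most ZNF proteins of chromosome 19 are built from a tandem array of C2H2 fingers, each a short loop held by a zinc ion between a pair of cysteines and a pair of histidines, and each able to contact a few bases of DNA. Many also carry a KRAB domain at the start of the protein, which recruits the scaffold TRIM28 and through it the histone methyltransferase SETDB1, heterochromatin proteins and deacetylases, so that the bound DNA is silenced. The genes arose by repeated local duplication and lie in clusters, and many are known for binding retrotransposons. Such transcripts are usually scarce in a cell.

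The defining markers of the labelled line did not all hold. FOXA1, the luminal pioneer factor, was at 0 to 0.04 FPKM over the 9 libraries, while VIM, an intermediate filament usually low in luminal cells, was at 366 to 441 FPKM. ERBB2 was at 11.8 to 17.8 FPKM, FGFR4 at 17.9 to 33.1 FPKM, SPDEF at 0.57 to 1.24 FPKM, KRT8 at 3011 to 3773 FPKM and KRT18 at 1680 to 2509 FPKM. ESR1 reached at most 0.02 FPKM, KRT5 0.63 FPKM and KRT14 0.25 FPKM. Of the markers of other cells, PTPRC (leukocytes) reached 0.07 FPKM, PECAM1 (endothelium) 0.12 FPKM and COL1A2 (fibroblasts) 0.12 FPKM, whereas COL1A1 was at 3.49 to 7.08 FPKM. The name of the line is used below only as a label. The depth that the spacing of small FPKM values implies lay between 26.1 and 28.0 M fragments (M, 1e6) in X453_NC and between 23.5 and 25.5 M in the knockdown libraries. Libraries of 1 group correlated at r = 0.994 to 0.996 over the tested genes and at r = 0.992 to 0.995 over the 234 ZNF genes, and libraries of different groups at r = 0.956 to 0.987 over the ZNF genes.

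The coding sequences showed 2 kinds of ZNF gene, and the groups below differ by kind. Of the 233 genes with a transcript in GENCODE release 29, 21 had a transcript of at least 59.1% GC, the limit that the GC-richest 2275 of 11382 tested genes passed, and are called GC-rich here. The other 212 ran from 33.9% to 58.8% GC, with a median of 42.1%. The finger count in the translated coding sequence ran from 1 to 20 in the GC-rich genes (median 6) and from 3 to 34 in the others (median 13). A core motif of the KRAB domain was found in 2 of the 21 GC-rich genes and in 194 of the 212 others. The motif misses some KRAB genes, such as ZNF473. The KRAB label of the deposited annotation, which nearly every ZNF gene carried, was on 18 of the 21 and 211 of the 212. The split was chosen after values had been seen. A finger and its linker from members of both kinds are printed to show how far the codons differ around the same residues. The codons of the zinc-binding cysteines and histidines are in capitals, and each stretch of 78 bases is read from GENCODE release 29 on GRCh38, 5′ to 3′ on the coding strand.

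Of the GC-rich genes, the stretch of ZNF784 lies at chr19:55622339-55622416 on the reverse strand, that of ZNF787 at chr19:56088893-56088970 on the reverse strand and that of ZNF358 at chr19:7520035-7520112 on the forward strand.
ZNF784: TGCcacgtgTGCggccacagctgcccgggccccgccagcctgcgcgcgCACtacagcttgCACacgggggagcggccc
ZNF787: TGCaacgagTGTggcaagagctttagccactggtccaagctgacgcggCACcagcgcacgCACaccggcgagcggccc
ZNF358: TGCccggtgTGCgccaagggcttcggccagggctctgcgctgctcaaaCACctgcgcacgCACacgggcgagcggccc

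Of the other genes, the stretch of ZNF83 lies at chr19:52614121-52614198 on the reverse strand, that of ZNF460 at chr19:57291133-57291210 on the forward strand, that of ZNF791 at chr19:12627929-12628006 on the forward strand and that of ZNF888 at chr19:52907515-52907592 on the reverse strand.
ZNF83: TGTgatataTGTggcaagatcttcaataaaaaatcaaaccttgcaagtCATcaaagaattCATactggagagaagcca
ZNF460: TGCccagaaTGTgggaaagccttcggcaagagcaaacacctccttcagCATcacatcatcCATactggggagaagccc
ZNF791: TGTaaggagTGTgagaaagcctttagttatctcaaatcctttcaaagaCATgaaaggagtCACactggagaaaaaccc
ZNF888: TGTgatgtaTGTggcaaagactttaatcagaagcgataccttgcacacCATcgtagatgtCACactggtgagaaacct

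These stretches encode the same fold with different bases. The third codon position was G or C in 100% of the codons of ZNF784, 92.3% of ZNF787 and 92.3% of ZNF358, against 26.9% of ZNF83, 34.6% of ZNF791 and 30.8% of ZNF888. ZNF460 stood between them at 65.4%. Over the 11 GC-rich genes and the 209 others with such a stretch, the median share was 92.3% and 34.6%. The sequences of the promoters, from RefSeq on GRCh38.p14, differed less, with a median GC content of 67.0% over 20 GC-rich genes, 59.0% over 184 others and 58.3% over all 27305 promoters of the same length. The GC box GGGCGG, searched on both strands, was in 16 of the 20 GC-rich promoters, in 65.8% of the other and 44.6% of all promoters, and TATAAA was in 0 of the 20, in 2.2% and in 12%.

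The ZNF genes were weakly expressed. Of the 234 genes, 36 had a mean below 0.1 FPKM over the 9 libraries, 67 had a mean of 0.1 to 1 FPKM, 102 of 1 to 5 FPKM and 29 of at least 5 FPKM. The median gene was at 1.51 FPKM in the control. ZNF146, which consists of fingers only, was the highest, but it overlaps another known gene, so its level is uncertain. It measured 31.9, 29.9 and 28.99 FPKM in X453_NC, 29.8, 31.2 and 29.4 FPKM in X453_1 and 22.8, 23.9 and 24.2 FPKM in X453_2. All 3 X453_2 libraries lay below the others, while X453_1 overlapped the control. The next 7 in the control, ZNF581, ZNF787, ZNF580, ZNF358, ZNF444, ZNF428 and ZNF579, were all GC-rich, with control means from 21.5 down to 11.6 FPKM. ZNF787 and ZNF581 did not differ beyond their spread in that order (20.7 ± 1.27 and 21.5 ± 0.62 FPKM, SD, n = 3), and nor did ZNF358 and ZNF444 (13.6 ± 0.62 and 13.1 ± 2.06 FPKM).

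The summed level of the 234 genes was highest in X453_NC and lowest in X453_2. It was 582 to 599 FPKM in X453_NC, 528 to 538 FPKM in X453_1 and 453.25 to 460.42 FPKM in X453_2, and the groups did not overlap. The kinds of gene took different parts in this. The 21 GC-rich genes summed to 144, 159 and 164 FPKM in X453_NC, to 93.7, 86.2 and 90.6 FPKM in X453_1 and to 99.1, 96.8 and 87.0 FPKM in X453_2, so that the knockdown groups overlapped each other and lay below the control. The 212 others summed to 456, 427 and 419 FPKM in X453_NC, to 435, 452 and 437 FPKM in X453_1 and to 354, 360 and 373 FPKM in X453_2. There X453_1 overlapped the control and only X453_2 lay below it. In bulk RNA, fewer cells that express a gene and less RNA per cell cannot be told apart.

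**Figure D1:**
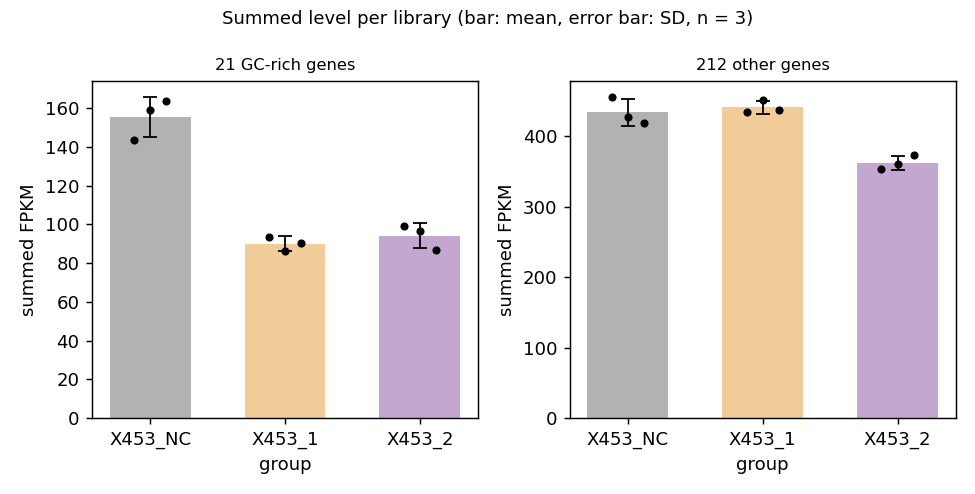
Summed FPKM of the 21 GC-rich and the 212 other ZNF genes in each library, with a bar for the mean of each group, an error bar for the SD (n = 3) and a point per library; the axis starts at 0. The GC-rich sum was lower in both knockdown groups (86.2 to 99.1 FPKM) than in X453_NC (144 to 164 FPKM), and the other sum was lower in X453_2 alone (354 to 373 FPKM).

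To test single genes, limma was fitted to log2(FPKM + 1) over the 12884 genes whose mean reached 1 FPKM, which 131 of the 234 ZNF genes passed. A gene was called when its fold change reached 1.3 (0.38 on the log2 scale) at an adjusted P (Benjamini-Hochberg) no greater than 0.05. Adding 1 understates the change of a weakly expressed gene, so a second fit used log2(FPKM + 0.1) over the 16309 genes whose mean reached 0.1 FPKM, which 198 ZNF genes passed. Both comparisons with the control share its 3 libraries.

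In X453_1 compared with X453_NC, 16 of the 131 tested ZNF genes were lower and 5 were higher, against 15.5% and 11.0% of all tested genes. The median difference was -0.04 for the ZNF genes and 0.00 for all tested genes. The genes that fell were mostly GC-rich: 13 of the 16 tested GC-rich genes were lower (median -0.67) and 3 of the 115 others (median -0.01). With the trend of each library with GC content removed, 6 of the 16 (median -0.18) and 9 of the 115 (median -0.09) were lower. In the second fit, 36 of 198 were lower and 13 were higher, against backgrounds of 17.0% and 14.2%.

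In X453_2 compared with X453_NC, 47 of the 131 were lower and 2 were higher, against backgrounds of 23.0% and 10.9%. The median difference was -0.24, against -0.10 for all tested genes. Of the GC-rich genes, 13 of 16 were again lower (median -0.60), and here 34 of the 115 others were lower too (median -0.22). With the GC trend removed in the same way, 30 of the 131 were lower. These were 4 of the 16 GC-rich genes (median -0.24) and 26 of the 115 others (median -0.18). In the second fit, 91 of 198 were lower and 5 were higher, against backgrounds of 26.2% and 13.0%, with a median of -0.37 against -0.11 for all tested genes.

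In X453_2 compared with X453_1, which tests the difference between the knockdown groups directly, 14 of the 131 were lower and 0 were higher by limma, against backgrounds of 5.32% and 2.06%. At an unadjusted P of at most 0.05, and with no limit on the fold, 79 were lower and 3 were higher. Of all 12884 tested genes, 5062 were lower and 1635 higher at that limit. All 14 called genes were outside the GC-rich kind, whose 16 tested genes had a median difference of 0.01 against -0.22 for the 115 others. Over the whole table the median also went with GC content. It was -0.135 for the GC-poorest 2277 tested genes and -0.028 for the GC-richest 2275, ZNF genes included. In the second fit, 60 of 198 were lower and 0 were higher by limma, against backgrounds of 9.63% and 2.31%. At an unadjusted P of at most 0.05 there were 105 and 3, against 5643 and 1750 of all 16309 tested genes. When each library was scaled by its median ratio over expressed genes, which moved the median of all tested genes from -0.08 to 0.01, 7 of the 131 were lower and 1 was higher. When the trend with GC content was removed from each library, 5 of the 131 were lower. All 5 were among the 115 others, whose median was then -0.1.

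**Figure D2:**
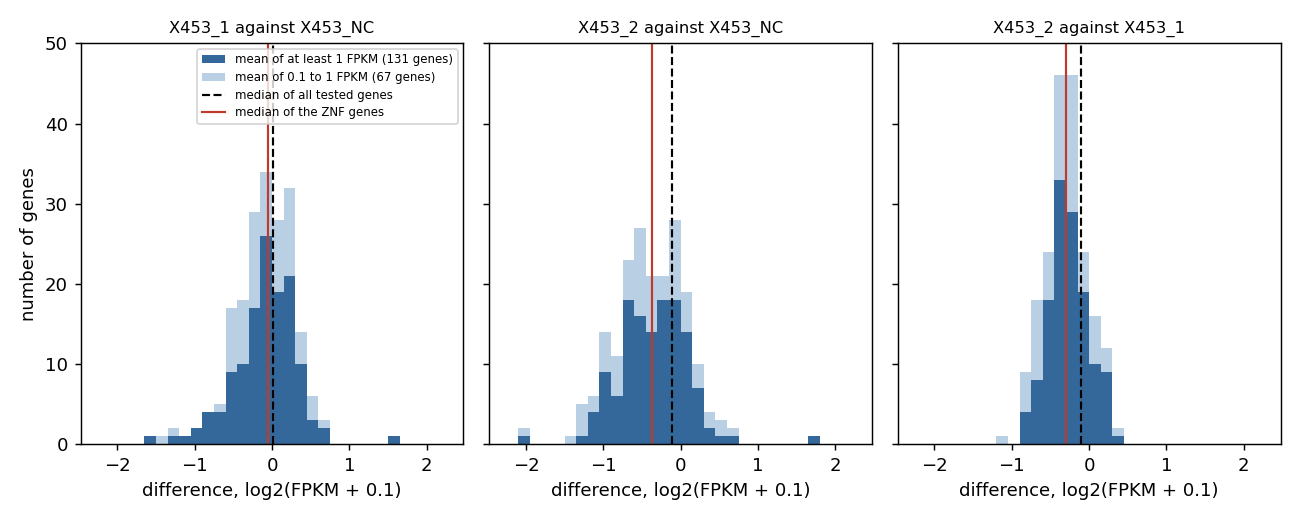
Number of ZNF genes by their difference in log2(FPKM + 0.1) in the 3 comparisons, with dark bars for the 131 genes of at least 1 FPKM and light bars for the 67 genes of 0.1 to 1 FPKM. The dashed line is the median of all 16309 tested genes and the red line that of the 198 ZNF genes, which lay at -0.06, -0.37 and -0.30 from left to right.

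The same counts in ZNF genes of other chromosomes and in the other genes of chromosome 19 show what the 131 genes had in common with them. Of the 184 tested ZNF genes elsewhere in the genome, 34 were lower in X453_1 and 66 in X453_2 compared with X453_NC, and 18 were lower in X453_2 compared with X453_1, with medians of -0.07, -0.28 and -0.17. Of 669 other known genes of chromosome 19, the lower counts were 232, 241 and 20, with medians of -0.21, -0.20 and 0.01. From X453_1 to X453_2, the median was thus below that of all tested genes in ZNF genes on and off chromosome 19, and above it in the other genes of chromosome 19. No test was made of these sets against each other.

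The GC-rich genes that fell lay mostly side by side. In order of start on GRCh37, 9 tested neighbours from ZNF628 to ZNF444 in the first 0.69 Mb of the last cluster (chr19:55987202-56672262) were all lower in X453_1, and all lower in X453_2, compared with X453_NC. They are ZNF628, ZNF579, ZNF524, ZNF865, ZNF784, ZNF580, ZNF581, ZNF787 and ZNF444, and their transcripts were 61.7% to 71.1% GC. The run was chosen after its values had been seen. Their differences ran from -1.21 to -0.38 in X453_1 and from -1.51 to -0.39 in X453_2. None of the 9 was called between the knockdown groups in the first fit, where they ran from -0.30 to 0.28 with a median of 0.04.

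ZNF784, whose product has 6 fingers, fell the most in both comparisons. It measured 4.82, 4.82 and 5.50 FPKM in X453_NC (239 to 292 fragments), 1.67, 1.33 and 1.88 FPKM in X453_1 and 1.11, 1.13 and 1.12 FPKM in X453_2. The 3 groups did not overlap. The difference was -1.21 (SE 0.08, adjusted P = 1.3e-06, limma) in X453_1 and -1.51 (adjusted P = 1.8e-07) in X453_2. Between the knockdown groups it was -0.30 (adjusted P = 0.013), short of the fold limit in the first fit and past it in the second, at -0.49 (adjusted P = 0.011).

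ZNF524, a protein of 4 fingers known to bind telomeric repeats, measured 9.48, 10.3 and 10.03 FPKM in X453_NC, 4.06, 4.64 and 3.68 FPKM in X453_1 and 4.11, 4.65 and 3.98 FPKM in X453_2. The knockdown groups overlapped each other and lay well below the control. Its difference was -1.10 in X453_1 (SE 0.07, adjusted P = 1.3e-06) and -1.06 in X453_2 (adjusted P = 1e-06). ZNF579, its neighbour, measured 10.8, 11.5 and 12.5 FPKM in X453_NC, 4.94, 5.27 and 4.85 FPKM in X453_1 and 6.56, 5.65 and 4.81 FPKM in X453_2. Its differences of -1.06 and -0.92 were past the limits, and the knockdown groups again overlapped.

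ZNF581 and ZNF580 are direct neighbours on the forward strand. ZNF581 measured 20.8, 21.5 and 22.1 FPKM in X453_NC, 11.6, 11.5 and 11.4 FPKM in X453_1 and 12.98, 11.7 and 11.8 FPKM in X453_2, with differences of -0.85 (SE 0.04, adjusted P = 2.3e-07) and -0.77 (adjusted P = 2.2e-07). ZNF580 measured 15.6, 20.01 and 19.2 FPKM in X453_NC, 12.6, 10.3 and 10.6 FPKM in X453_1 and 10.7, 12.1 and 10.9 FPKM in X453_2, with differences of -0.66 and -0.65. No control library of either gene overlapped a knockdown library.

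ZNF787 and ZNF444 close the run. ZNF787 measured 19.2, 21.7 and 21.2 FPKM in X453_NC, 13.7, 11.6 and 12.6 FPKM in X453_1 and 16.7, 15.7 and 14.4 FPKM in X453_2. Its fall was smaller in X453_2 (-0.39) than in X453_1 (-0.67), and the difference between the knockdown groups was 0.28 (adjusted P = 0.009), under the fold limit. The call of ZNF787 in X453_2 was lost, at -0.37 to -0.33, without X453_NC replicate 2 or 3 or X453_2 replicate 3, and with median ratio scaling at -0.29. ZNF444, a SCAN domain protein first described in endothelium, measured 10.8, 13.7 and 14.8 FPKM in X453_NC, 7.37, 6.74 and 8.21 FPKM in X453_1 and 8.84, 9.40 and 7.76 FPKM in X453_2. All 6 knockdown libraries lay below the 3 control libraries, and the differences were -0.73 and -0.54.

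ZNF628 and ZNF865, named here after their values were seen, have longer arrays of 16 and 20 fingers. ZNF628 measured 2.26, 2.86 and 2.65 FPKM in X453_NC, 2.18, 1.60 and 1.52 FPKM in X453_1 and 1.66, 1.47 and 1.64 FPKM in X453_2. ZNF865 measured 3.96, 4.52 and 4.63 FPKM in X453_NC, 3.10, 2.73 and 2.77 FPKM in X453_1 and 3.26, 3.13 and 2.25 FPKM in X453_2. Both were at or just past the fold limit, at -0.38 and -0.47 for ZNF628 and at -0.47 and -0.48 for ZNF865. With the trend with GC content removed from each library, neither gene was below 0 in either comparison.

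GC-rich genes outside the run fell as well. ZNF358, in the cluster at 7.1 to 9.9 Mb, measured 12.9, 13.8 and 14.1 FPKM in X453_NC, 7.41, 6.79 and 7.47 FPKM in X453_1 and 7.30, 6.62 and 6.64 FPKM in X453_2, with differences of -0.83 (adjusted P = 9.9e-07) and -0.90 (adjusted P = 3.6e-07). ZNF428, which has a single finger match, measured 12.7, 11.7 and 14.4 FPKM in X453_NC, 7.11, 6.76 and 8.11 FPKM in X453_1 and 9.27, 9.25 and 7.05 FPKM in X453_2. ZNF653 measured 1.69, 2.22 and 2.45 FPKM in X453_NC, 1.15, 1.25 and 1.21 FPKM in X453_1 and 0.89, 1.12 and 0.88 FPKM in X453_2. These 3 overlap C19orf45, SRRM5 and ECSIT, and the handling of reads that 2 genes share is not given in the sources used here. Not every GC-rich gene fell. ZNF574, of 18 fingers and named here after its values were seen, measured 5.22, 5.43 and 5.04 FPKM in X453_NC, 6.96, 6.33 and 6.61 FPKM in X453_1 and 5.87, 5.17 and 4.69 FPKM in X453_2. It was not called in any comparison of the 2 fits. With the GC trend removed, however, 2 of the 16 tested GC-rich genes were higher in X453_1, by up to 0.58.

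ZNF446, a SCAN domain protein whose transcript of 58.8% GC was just under the limit, measured 2.25, 2.23 and 2.40 FPKM in X453_NC, 1.42, 0.97 and 1.0 FPKM in X453_1 and 0.85, 1.02 and 0.98 FPKM in X453_2. Its differences were -0.63 and -0.76. It shared 34.6% of its 100-base windows with ZNF324, so its level is uncertain.

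Over the GC-richest 2275 tested genes of the table, ZNF genes included, the median difference was -0.30 in X453_1 and -0.35 in X453_2 compared with X453_NC, and -0.03 between the knockdown groups, whereas the 16 GC-rich ZNF genes were at -0.67, -0.60 and 0.01. Removing the trend with GC content from each library left 6 of the 16 lower and 2 higher in X453_1 (median -0.18), and 4 lower and 1 higher in X453_2 (median -0.24). Of the 115 others, 9 were then lower and 2 higher in X453_1 (median -0.09), and 26 lower and 2 higher in X453_2 (median -0.18). Of the run of 9, 5 stayed lower in X453_1 and 4 in X453_2, while 6 and 5 of the 9 had differences below 0. ZNF628 and ZNF865 were not below 0 in either comparison. Under this correction ZNF784 stayed lower in both groups, ZNF787 turned to 0.01 in X453_1 and 0.26 in X453_2, and ZNF444 turned to 0.04 in X453_2. The calls of ZNF358 were lost at -0.21 and -0.30, those of ZNF653 at -0.06 and -0.22, that of ZNF444 in X453_1 at -0.14, and those of ZNF428 and ZNF580 in X453_2 at -0.26 and -0.35.

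**Figure D3:**
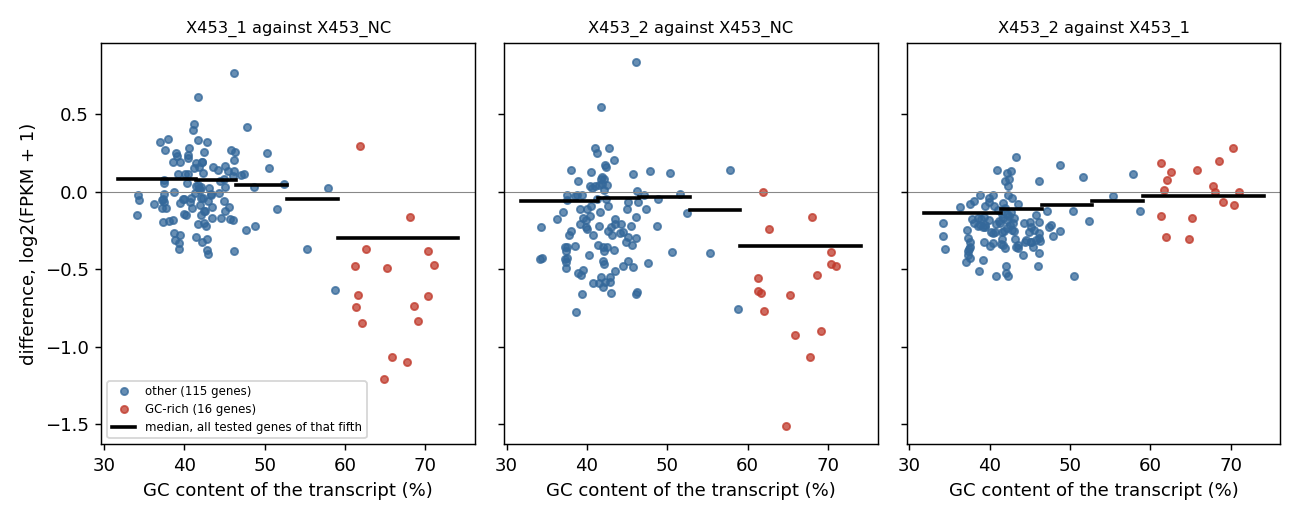
Difference in log2(FPKM + 1) of the 131 tested ZNF genes against the GC content of their transcript, with black lines for the median of all tested genes in 5 equal classes of GC content. The 16 GC-rich ZNF genes (red) lay mostly below the line of their class in the comparisons with X453_NC and around it between the knockdown groups, and the 115 others (blue) lay lower in X453_2.

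Few ZNF genes rose. ZNF460 rose the most, from 0.46, 0.33 and 0.32 FPKM in X453_NC (34 to 45 fragments) to 1.44, 1.34 and 1.22 FPKM in X453_1 and 1.46, 1.27 and 1.63 FPKM in X453_2. All 6 knockdown libraries lay above the control, and the knockdown groups overlapped. On the log2(FPKM + 1) scale the differences were 0.77 (SE 0.08, adjusted P = 2e-05) and 0.84 (adjusted P = 8.2e-06). On the log2(FPKM + 0.1) scale they were 1.62 and 1.73.

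ZNF83, of 14 fingers, measured 5.53, 5.79 and 5.81 FPKM in X453_NC, 8.89, 9.62 and 9.31 FPKM in X453_1 and 8.87, 8.52 and 8.96 FPKM in X453_2. The differences were 0.61 (SE 0.04, adjusted P = 1.5e-06) and 0.54 (adjusted P = 1.9e-06), and the knockdown groups overlapped. ZNF460 and ZNF83 were the genes called higher in X453_2 in the first fit.

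The other rises of the first fit were called in X453_1 alone, and in the second fit ZNF808 was called in X453_2 too (0.46). ZNF473, a component of the machinery that processes histone transcripts, measured 4.70, 4.93 and 4.41 FPKM in X453_NC, 6.93, 6.07 and 6.76 FPKM in X453_1 and 4.98, 5.18 and 5.51 FPKM in X453_2. ZNF816 measured 3.49, 3.26 and 2.63 FPKM in X453_NC, 4.41, 4.37 and 4.93 FPKM in X453_1 and 3.76, 3.61 and 4.33 FPKM in X453_2, and it overlaps the readthrough gene ZNF816-ZNF321P. ZNF808, a KRAB protein required for normal pancreas development, measured 1.05, 1.09 and 1.17 FPKM in X453_NC, 1.89, 1.69 and 1.73 FPKM in X453_1 and 1.53, 1.48 and 1.65 FPKM in X453_2. In all 3, X453_2 lay between the other groups, and the difference between the knockdown groups was not called (-0.28, -0.19 and -0.12). Without X453_NC replicate 3 the call of ZNF816 was lost (0.35), and without X453_1 replicate 1 that of ZNF808 (0.37), both by the fold limit. With the GC trend removed all 3 calls were lost by that limit, at 0.35 for ZNF473, 0.36 for ZNF816 and 0.32 for ZNF808.

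**Figure D4:**
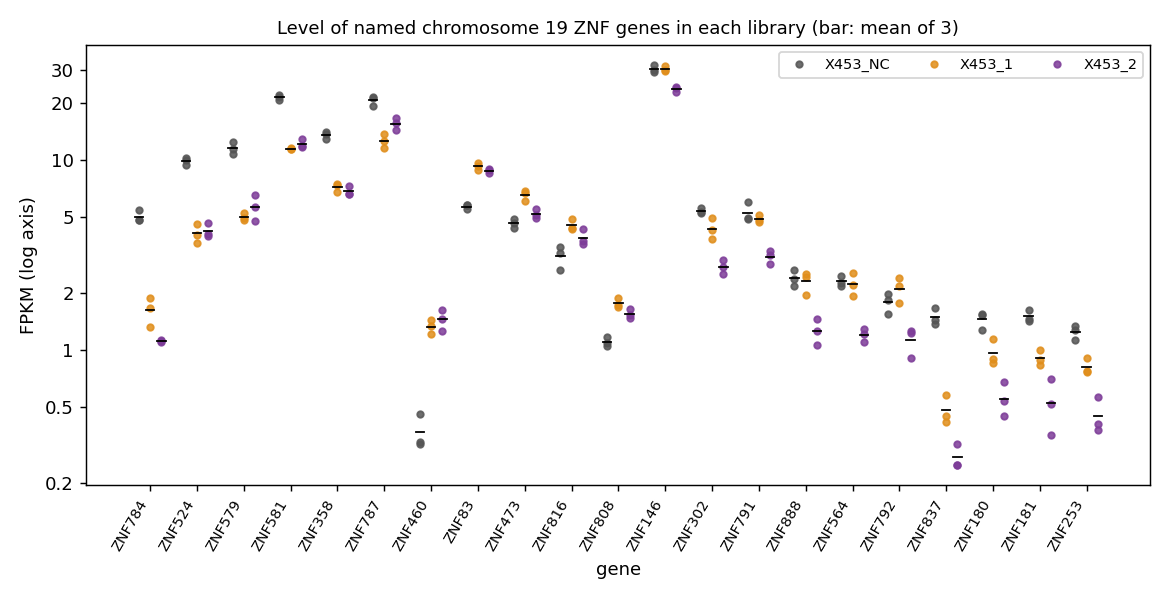
FPKM on a log axis of 21 named ZNF genes in each of the 9 libraries, 1 point per library and a bar for the mean of the 3. The genes at the left (ZNF784 to ZNF787) were lower in both knockdown groups, ZNF460 and ZNF83 were higher in both, and from ZNF146 to ZNF792 the X453_2 points lay below both other groups.

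The genes called between the knockdown groups in the first fit were of the other kind, with transcripts of 37.0% to 50.5% GC and 6 to 31 fingers. In the second fit, 3 of the 20 tested GC-rich genes were lower in X453_2 compared with X453_1, beside 57 of the 178 others. ZNF564 measured 2.27, 2.47 and 2.18 FPKM in X453_NC, 2.54, 2.20 and 1.93 FPKM in X453_1 and 1.11, 1.29 and 1.22 FPKM in X453_2. It shared 82.5% of its windows with another transcript of the annotation, so this level is uncertain. ZNF888, of 17 fingers, measured 2.64, 2.37 and 2.18 FPKM in X453_NC, 1.95, 2.44 and 2.52 FPKM in X453_1 and 1.26, 1.07 and 1.46 FPKM in X453_2. X453_1 and the control overlapped in both genes, and the difference between the knockdown groups was -0.54 in each (adjusted P = 0.00055 and 0.0013).

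ZNF791 and ZNF792 followed this pattern. ZNF791 measured 6.03, 4.96 and 4.88 FPKM in X453_NC, 4.73, 4.85 and 5.15 FPKM in X453_1 and 2.84, 3.32 and 3.17 FPKM in X453_2, a difference of -0.53 between the knockdown groups (SE 0.08, adjusted P = 0.00057). ZNF792 measured 1.98, 1.56 and 1.84 FPKM in X453_NC, 2.39, 1.78 and 2.17 FPKM in X453_1 and 0.91, 1.27 and 1.23 FPKM in X453_2, a difference of -0.54 (SE 0.10, adjusted P = 0.002). Its call against X453_NC (-0.39) was lost, at -0.37 to -0.31, without X453_NC replicate 1 or 3 or X453_2 replicate 1, with median ratio scaling (-0.33) and with the GC trend removed (-0.35). ZNF302 had its lowest values in X453_2 and its highest in the control. It measured 5.64, 5.35 and 5.25 FPKM in X453_NC, 3.84, 4.95 and 4.29 FPKM in X453_1 and 2.51, 3.0 and 2.75 FPKM in X453_2. The difference was -0.26 in X453_1, which was not called, and -0.77 in X453_2 (adjusted P = 1.2e-05 by limma). Between the knockdown groups it was -0.51 (adjusted P = 0.00079 by limma), a call that was just lost by the fold limit with the GC trend removed (-0.38). Its 3 groups did not overlap.

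ZNF91, named here after its values were seen, encodes an array of 31 finger matches and is known for silencing SVA retrotransposons. It measured 3.08, 3.23 and 2.69 FPKM in X453_NC, 3.8, 4.3 and 3.86 FPKM in X453_1 and 2.76, 2.37 and 2.83 FPKM in X453_2. X453_1 lay above both other groups, which overlapped, and the difference between the knockdown groups was -0.45 (SE 0.07, adjusted P = 0.0011 by limma). This call was lost with median ratio scaling and with the GC trend removed. Of the 13 tested genes of its cluster, 0 were then lower between the knockdown groups, and the lowest differences were -0.37 and -0.31.

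Below 1 FPKM, 67 genes were tested only in the second fit, where values rest on few fragments. Of these, 11 were lower and 4 higher in X453_1, and 30 lower and 2 higher in X453_2, compared with X453_NC, and 19 were lower in X453_2 compared with X453_1. Over all genes of that fit, 17.0% were lower and 14.2% higher in X453_1, 26.2% lower and 13.0% higher in X453_2, and 9.63% lower between the knockdown groups. ZNF837, which is GC-rich, fell the most, from 1.37, 1.67 and 1.44 FPKM in X453_NC (69 to 88 fragments) to 0.45, 0.42 and 0.58 FPKM in X453_1 and 0.32, 0.25 and 0.25 FPKM in X453_2. Its differences on the log2(FPKM + 0.1) scale were -1.45 (adjusted P = 4.6e-05) and -2.09 (adjusted P = 3.4e-06). ZNF497, also GC-rich, went from 0.71, 0.72 and 0.77 FPKM to 0.26, 0.21 and 0.31 FPKM in X453_1 and 0.31, 0.32 and 0.21 FPKM in X453_2. Neither gene's control libraries overlapped a knockdown library.

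ZNF180, ZNF181 and ZNF253, which are not GC-rich, fell in 2 steps. ZNF180 measured 1.54, 1.28 and 1.56 FPKM in X453_NC, 1.15, 0.90 and 0.86 FPKM in X453_1 and 0.54, 0.45 and 0.68 FPKM in X453_2. ZNF181 measured 1.63, 1.43 and 1.46 FPKM in X453_NC, 1.0, 0.84 and 0.89 FPKM in X453_1 and 0.36, 0.52 and 0.71 FPKM in X453_2. ZNF253 measured 1.34, 1.28 and 1.13 FPKM in X453_NC, 0.78, 0.91 and 0.77 FPKM in X453_1 and 0.38, 0.57 and 0.41 FPKM in X453_2. The 3 groups did not overlap in any of them, and the differences in X453_2 compared with X453_NC were -1.26, -1.39 and -1.30. The call of ZNF180 in X453_1 (-0.55) was lost on leaving out X453_NC replicate 1 or 3 or X453_1 replicate 2 or 3, at adjusted P = 0.053 to 0.061 by limma. That of ZNF181 between the knockdown groups (-0.72) was lost without X453_1 replicate 1 (adjusted P = 0.058).

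Of the rises at this level, ZNF471 went from 0.36, 0.24 and 0.26 FPKM in X453_NC to 0.55, 0.57 and 0.47 FPKM in X453_1 and 0.49, 0.51 and 0.50 FPKM in X453_2, with differences of 0.71 (adjusted P = 0.0043) and 0.65 (adjusted P = 0.0062). ZNF177, ZNF540 and ZNF563 were called higher in X453_1 by 0.49 to 0.55 and ZNF233 in X453_2 by 0.43, at adjusted P = 0.03 to 0.042. Each of these 4 calls was lost on leaving out at least 1 library. ZNF177 also shared 94.5% of its windows with the readthrough gene ZNF559-ZNF177, and ZNF233 and ZNF540 overlap ZNF235 and ZNF571.

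Divided where neighbouring starts lay over 1 Mb apart, the genes formed 9 clusters of at least 5 members with 224 genes in all, and 10 genes lay outside. The largest, at 56.0 to 59.0 Mb on GRCh37, held 56 genes. Of its 28 tested genes, 12 were lower in X453_1 and 15 in X453_2, with medians of -0.23 and -0.39. Over all tested genes, 15.5% and 23.0% were lower. Its 10 tested GC-rich genes were all lower in each comparison, and of its 18 others 2 were lower in X453_1 (median 0.02) and 5 in X453_2 (median -0.28). Its summed level was 168 to 180 FPKM in X453_NC, 119 to 124 FPKM in X453_1 and 109 to 118 FPKM in X453_2.

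The cluster at 52.1 to 54.1 Mb held 38 genes. Of its 27 tested genes, 3 were higher and 0 lower in X453_1 (median 0.07), where 11.0% and 15.5% of all tested genes were, and 1 was higher and 6 were lower in X453_2 (median -0.11), against 10.9% and 23.0%. In X453_1, 5 were higher and 3 lower in the second fit, and with the GC trend removed 1 was higher and 2 were lower in the first (median -0.01). Its summed level was 83.3 to 89.2 FPKM in X453_NC, 92.1 to 97.5 FPKM in X453_1 and 75.8 to 80.7 FPKM in X453_2, and the 3 ranges did not overlap. Its highest gene, ZNF160, measured 9.75, 9.33 and 9.36 FPKM in X453_NC, 9.68, 10.3 and 9.43 FPKM in X453_1 and 9.16, 7.98 and 8.66 FPKM in X453_2, and was not called in any comparison.

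The cluster at 19.8 to 24.3 Mb, where the GC content was lowest (median 37.3%), had 30 genes, of which 13 were tested. In the first fit none was lower in X453_1 by limma and 5 were lower in X453_2, with medians of -0.07 and -0.35. The shares over all tested genes were 15.5% and 23.0%. Its highest gene, ZNF506, measured 8.93, 8.80 and 9.38 FPKM in X453_NC, 7.52, 8.38 and 7.71 FPKM in X453_1 and 7.17, 6.85 and 6.66 FPKM in X453_2, with differences of -0.18 and -0.35 under the fold limit, and in the second fit it was called lower in X453_2 at -0.39. With libraries scaled by their median ratio, 2 of the 13 were lower in X453_2.

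In 5 of the 6 remaining clusters, fewer genes were lower in X453_1 than in X453_2, as over all tested genes (15.5% and 23.0%). In the cluster at 11.6 to 12.7 Mb, 1 of 14 tested genes was lower in X453_1 and 6 were lower in X453_2, and its highest gene, ZNF69, was not called at 7.67, 7.15 and 6.71 FPKM in X453_NC, 8.32, 9.64 and 8.61 FPKM in X453_1 and 7.71, 6.93 and 9.06 FPKM in X453_2. The counts were 0 and 4 of 12 at 36.7 to 38.3 Mb, 2 and 6 of 14 at 44.0 to 45.6 Mb, 1 and 2 of 11 at 7.1 to 9.9 Mb and 0 and 2 of 3 at 35.2 to 35.5 Mb. At 2.8 to 2.9 Mb neither of the 2 tested genes was called, and its highest, ZNF57, measured 3.36, 2.98 and 3.02 FPKM in X453_NC, 4.0, 3.74 and 3.5 FPKM in X453_1 and 2.72, 3.38 and 3.34 FPKM in X453_2. These shares were not tested against each other.

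**Figure D5:**
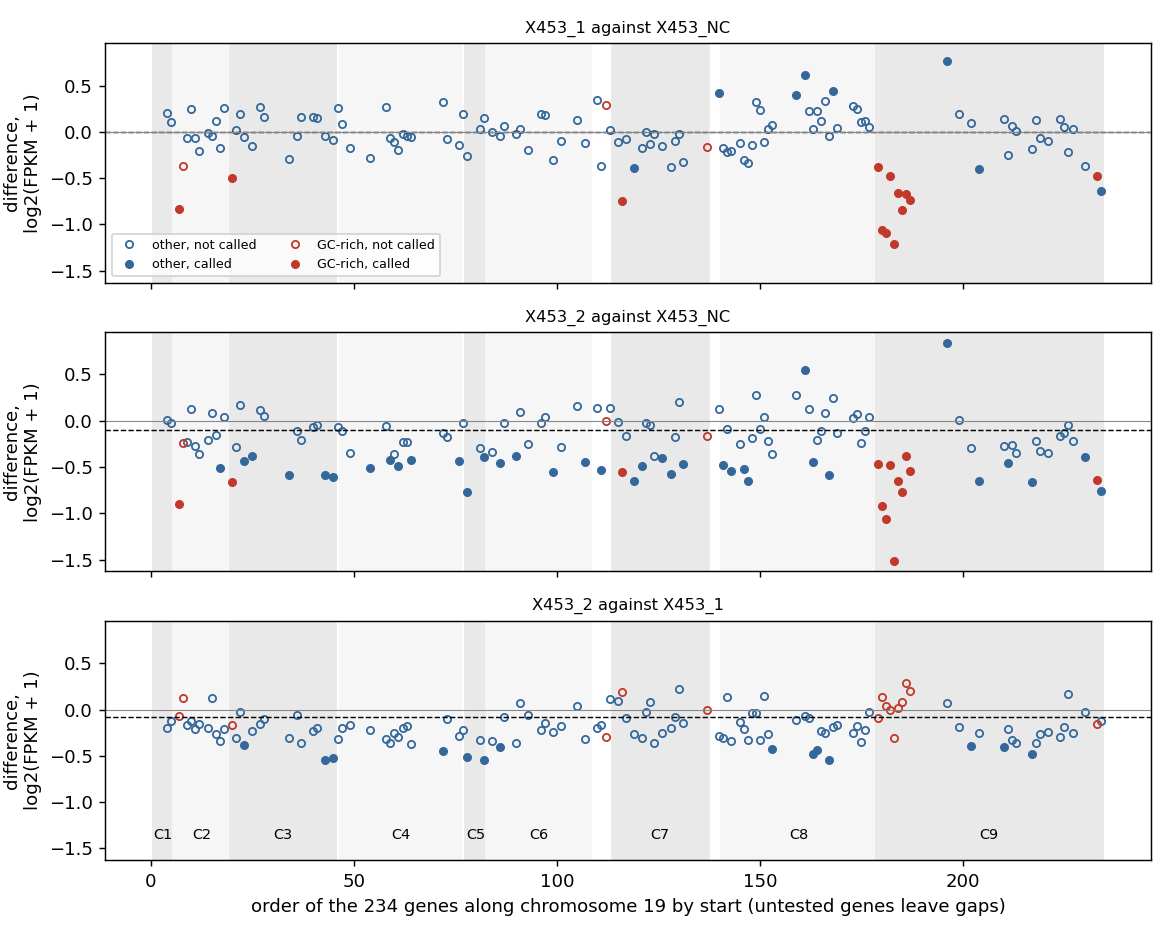
Difference in log2(FPKM + 1) of the tested ZNF genes in their order along chromosome 19, with filled points for called genes, shading for the 9 clusters (C1 to C9) and a dashed line for the median of all tested genes. The run of 9 red filled points at the start of C9 lay below the line in both comparisons with X453_NC, and the blue filled points of X453_2 were spread over the clusters.

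Array length went with the kind of gene. Of the 20 tested genes with at most 7 fingers, 9 were lower in X453_1 and 11 in X453_2. Of the 78 with 8 to 15 fingers, 5 and 26 were lower, and of the 33 with more than 15, 2 and 10, where 15.5% and 23.0% of all tested genes were lower. Over the 106 tested genes with at most 20% of windows shared and no overlapping gene, 12 were lower in X453_1, 40 in X453_2 and 13 in X453_2 compared with X453_1.

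The siRNA sequences were searched in the ZNF transcripts because a short match to the first bases of the antisense strand can lower a transcript. The antisense strands listed by the study are printed with bases 2 to 8, the seed, in capitals, and the target of siRNA 2 is printed with the part found in ZNF transcripts in capitals.
siRNA 1: aGAAACCUcugauuccacctt
siRNA 2: uUAUUAUUugagacagggucu
Target of siRNA 2: AGACCCTGTCTCAAAtaataa

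The seed site AATAATA of siRNA 2 was in 31 of the 131 tested ZNF genes (23.7%) and in 24.7% of all tested genes with a transcript. In X453_2 compared with X453_1, the median difference was -0.23 with the site and -0.20 without it among the ZNF genes, and -0.14 and -0.07 among all tested genes. In X453_2 compared with X453_NC, the medians were -0.23 with it and -0.25 without it among the ZNF genes, and -0.08 and -0.11 among all tested genes. Over all tested genes, those with the site also had a lower median GC content (42.3%) than those without it (52.7%). The seed site AGGTTTC of siRNA 1 was in 30 of the 131 (22.9%) and in 20.2% of all tested genes. In X453_1 compared with X453_NC, the medians were -0.11 with it and -0.02 without it among the ZNF genes, and 0.02 and -0.01 among all tested genes. The match of 15 bases to the target of siRNA 2 was in 8 ZNF genes (ZNF233, ZNF347, ZNF555, ZNF559, ZNF563, ZNF766, ZNF83 and ZNF845), of which 4 passed the filter of the first fit. None of these 4 was lower in X453_2 compared with X453_NC or with X453_1 by limma, and ZNF83 was higher than in X453_NC. Over all genes of that fit, 23.0% and 5.32% were lower in these comparisons, and 10.9% were higher than in X453_NC. In the second fit, which tested all 8, ZNF555 and ZNF559 were lower and ZNF83 and ZNF233 higher in X453_2 compared with X453_NC, and ZNF555 and ZNF563 were lower compared with X453_1. Over all genes of the second fit, 26.2% were lower and 13.0% higher compared with X453_NC, and 9.63% lower compared with X453_1. A match of at least 14 bases was in 3.1% of the tested ZNF genes and in 2.5% of all tested genes with a transcript. The median of these in X453_2 compared with X453_NC was -0.10 and -0.17.

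Of 25 listed genes of KRAB silencing and heterochromatin, 24 were tested. Compared with X453_NC, 3 were higher and 1 was lower in X453_1, and 3 were higher and 4 lower in X453_2, while 4 were lower and 0 higher by limma in X453_2 compared with X453_1. Over all tested genes, 11.0% were higher and 15.5% lower in X453_1, 10.9% higher and 23.0% lower in X453_2, and 5.32% lower and 2.06% higher between the knockdown groups. TRIM28, the scaffold, measured 98.9, 107 and 109 FPKM in X453_NC, 123, 121 and 123 FPKM in X453_1 and 114, 115 and 108 FPKM in X453_2, and was not called. SETDB1, which methylates histone H3 at lysine 9, measured 11.3, 11.4 and 11.2 FPKM in X453_NC, 8.23, 8.24 and 7.40 FPKM in X453_1 and 6.16, 6.03 and 6.65 FPKM in X453_2, with differences of -0.46 (adjusted P = 2.8e-05) and -0.76 (adjusted P = 7.1e-07). Its 3 groups did not overlap.

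FAM208A, a subunit of the HUSH silencing complex also named TASOR, measured 6.92, 7.08 and 6.72 FPKM in X453_NC, 6.52, 6.61 and 6.21 FPKM in X453_1 and 3.66, 3.61 and 3.82 FPKM in X453_2, a difference of -0.66 between the knockdown groups (adjusted P = 7.2e-06). SMARCAD1, a chromatin remodeller, and SUV39H2, another H3 lysine 9 methyltransferase, also fell between the knockdown groups, by 0.57 and 0.52 on the log2 scale. ATF7IP, the partner of SETDB1, was lower between the knockdown groups as well (-0.38), while its differences from X453_NC were not called (0.31 in X453_1 and -0.07 in X453_2). HDAC1, a deacetylase, was higher in X453_1 (0.43) and in X453_2 (0.55) compared with X453_NC. The other called rises were MORC2 (0.40) and DNMT1 (0.38) in X453_1, and CHD3 (0.44) and CBX5 (0.40) in X453_2. MPHOSPH8 and PPHLN1, also in the list, were not called in any comparison (-0.04 and 0.07 in X453_2 compared with X453_NC).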

How the data were processed

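RNA from 9 libraries of cells labelled MDA-MB-453 was sequenced on the BGISEQ-500. The authors deposited FPKM per gene, a fragment count scaled by transcript length and library depth, with gene coordinates on GRCh37.p13. The submitters' processing notes name Bowtie2. The counting tool is not given in the sources used here. The deposited columns of the authors' own comparisons (log2 ratios, P and Q values) were not used.

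ZNF genes were the chromosome 19 entries whose symbol is ZNF, a number and at most 1 letter. The members, gene lists and tests were chosen with earlier results of these data known. Differences were tested with limma 3.58.1 (variance trend, all 9 libraries) in R 4.3.3, on log2(FPKM + 1) for genes whose mean reached 1 FPKM and on log2(FPKM + 0.1) for genes whose mean reached 0.1 FPKM. Benjamini-Hochberg adjusted P values were taken over all tested genes, and a call needed 0.05 and a fold change of 1.3. The fits were tested on simulated data. Tables and sequences were handled in Python 3.11.15 with pandas 2.3.3 and numpy 2.4.6, and plots drawn with matplotlib 3.10.9. Depth was estimated from the FPKM steps and limits the precision of weakly expressed genes. Sequences came from GENCODE release 29 (GRCh38) and RefSeq (GRCh38.p14), and no coordinate was converted between builds.

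By rule, the named genes were, in the first fit, up to 8 called genes with the largest rise and 8 with the largest fall in each comparison with X453_NC, and up to 5 of each between the knockdown groups. The 8 highest genes in X453_NC, the highest gene of each cluster and, in the second fit, up to 5 genes below 1 FPKM of the largest rise and of the largest fall were named as well. Other ZNF genes with values (ZNF574, ZNF628, ZNF865 and ZNF91) were chosen after their values were seen. Alternatives changed the pseudocount, the filter, the fold limit, the scaling, the variance trend, the P value of the call, the libraries included, the gap between clusters and the replicate block. Removal of the GC trend was added after seeing the data. 1 marker of the cell line is not reported here.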

Additional observations from a re-analysis of the deposited data

How the results depend on the processing

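For the 131 genes of the first fit, with 0.1 added before the logarithm, 9 were higher and 25 lower in X453_1 compared with X453_NC, and 41 were lower in X453_2 compared with X453_1, where the median was -0.29 (-0.35 in X453_2 compared with X453_NC). With no filter the medians were -0.15 in X453_2 compared with X453_NC and -0.13 between the knockdown groups. At a mean of at least 5 FPKM, which left 29 genes, 2 were higher and 8 lower in X453_1, 1 higher and 9 lower in X453_2, and 0 lower between the knockdown groups (median -0.12). At a fold limit of 2, 0 were higher in either group, 3 were lower in X453_1, 2 in X453_2 and 0 between the knockdown groups, and in the second fit 1 was higher and 5 lower in X453_1, 1 higher and 18 lower in X453_2 and 1 lower between the knockdown groups. With median ratio scaling the medians were -0.16 in X453_2 and -0.13 between the knockdown groups, where 1 was higher and 7 lower (1 and 39 in the second fit), and 9 were higher in X453_2 in the second fit. The calls of ZNF787 and ZNF792 in X453_2 and of ZNF563 between the knockdown groups were lost, at -0.29, -0.33 and -0.44. With the GC trend removed the medians were -0.10 in X453_1, -0.18 in X453_2 and -0.10 between the knockdown groups, with 30 lower in X453_2 and 5 lower between the knockdown groups (1 higher and 37 lower in the second fit). Of 60 calls of genes named by rule, 14 were lost and 3 turned, ZNF787 to 0.01 in X453_1 and 0.26 in X453_2 and ZNF444 to 0.04 in X453_2. The cause was not tested. Leaving out 1 library gave 14 to 19 lower in X453_1, 43 to 49 in X453_2 and 13 to 18 between the knockdown groups, and 11 named calls were lost at least once. With an unadjusted P, no variance trend or the compared groups alone, the counts stayed within 1.5 times those reported. A gap of 500000 or 2000000 bases gave 11 or 6 clusters in place of 9.

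Under a replicate block taken from the library labels, 5 were higher and 16 lower in X453_1, 2 higher and 47 lower in X453_2 and 14 lower between the knockdown groups. In the second fit the block gave 11 and 32, 4 and 91, and 0 and 52, and 3 calls of named genes were lost (ZNF540 and ZNF177 in X453_1, ZNF233 in X453_2). For this block, libraries with no replicate number in their title were taken as replicate 3. Libraries of the same label correlated at -0.239 to 0.104 in their deviations from the group means. No strong shared deviation was thus seen, but so few libraries cannot decide whether the labels mark paired cultures. Values below 1 FPKM rest on few fragments, and differences there were limited by counting.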

Other observations

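Of the 11 other zinc finger genes of chromosome 19 with ZFP, ZSCAN or ZIM symbols, 3 passed the filter of the first fit. ZFP36, a CCCH protein that binds AU-rich RNA and is no DNA-binding C2H2 protein, measured 39.7, 41.9 and 41.6 FPKM in X453_NC, 88.4, 90.8 and 88.9 FPKM in X453_1 and 151, 152 and 162 FPKM in X453_2. Its 3 groups did not overlap, and the differences by limma were 1.10 (adjusted P = 1.9e-08), 1.89 (adjusted P = 3.4e-10) and, between the knockdown groups, 0.79 (adjusted P = 8.5e-07). ZFP30, a KRAB protein, measured 2.09, 1.98 and 1.83 FPKM in X453_NC, 2.07, 2.06 and 2.03 FPKM in X453_1 and 1.28, 1.28 and 1.25 FPKM in X453_2. X453_1 overlapped the control and X453_2 lay below both, at -0.39 compared with X453_NC and -0.43 compared with X453_1 (adjusted P = 0.00014 and 0.00034). ZSCAN22 measured 1.53, 1.45 and 1.39 FPKM, then 1.3, 1.51 and 1.3 FPKM, then 1.14, 1.0 and 0.95 FPKM. It was not called in the first fit, and in the second fit it was lower in X453_2 compared with X453_NC (-0.46, adjusted P = 0.0034) and with X453_1 (-0.38, adjusted P = 0.019).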
